A study of Mus musculus with 30 samples.

Results

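Glycogen is the branched glucose store of animal cells. Glycogenin primes a new particle, glycogen synthase lengthens its chains, the branching enzyme adds branch points, and glycogen phosphorylase releases glucose phosphate from the chain ends. Synthase and phosphorylase are switched in opposite directions by phosphorylation, and the regulatory subunits of the Ppp1r3 family bring protein phosphatase 1 to the glycogen particle, where it activates the synthase and inactivates the phosphorylase. The store is best known from liver and muscle.

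The 9 genes described here encode 3 of these regulatory subunits (Ppp1r3b, Ppp1r3c and Ppp1r3d) and 6 enzymes of glycogen metabolism (Gys1, Gbe1, Gyg, Pgm2, Pygb and Pygl). They are 9 of the 46078 genes in the count table and were matched by gene name and gene identifier in all 30 libraries. Ppp1r3b was chosen by its response to diet in females and in males, read from these same libraries. The other 8 genes were chosen from the same pathway. The diet response of these genes is therefore given as a description, without a test. Expression was measured in colon of C57BL/6J mice, 5 to 6 weeks old at the start, which were fed for 13 weeks and received 9 intraperitoneal injections over the last 3 weeks. Each of the 5 groups held 6 libraries, 1 from each mouse. Females and males on a control diet with vehicle are called CD F and CD M, females and males on a high-fat diet with vehicle HFD F and HFD M, and males on the high-fat diet injected with estradiol at 0.5 mg/kg HFD+E2 M. The control diet had 10% and the high-fat diet 60% of its energy as fat, the females kept their ovaries, and no females treated with E2 were part of these libraries.

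Total counts on genes ranged from 8667177 to 17243712 per library, with a median of 11530915, and the 9 genes had from 19 to 2918 counts each in a library. Of 10 markers of colonic epithelium, 9 had a mean over 1 TPM (a level scaled to gene length and library size) in each group, but Cdx2 was at most 1.09 TPM. The summed level of 20 genes of squamous epithelium, which does not line the colon itself, was between 265 and 2133 TPM in 6 libraries (HFD F replicates 1, 3, 4 and 5 and HFD M replicates 2 and 4) and at most 168 TPM in the other 24. The libraries are of whole tissue, so that fewer cells of a type and less RNA per cell cannot be told apart.

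The protein phosphatase 1 docking motif (RVxF) is the feature that the 3 regulatory subunits share, and its coding sequence is shown to compare these members of 1 family. Between the sexes, Ppp1r3b and Ppp1r3c stood in opposite directions on CD, while both were lower in females on HFD. A link between the sequences and these levels was not tested. The stretches are from GRCm38 with the GENCODE vM21 annotation, each of 48 bases on the coding strand, 5′ to 3′, with the 4 codons of the motif in capitals. They lie in coding exons, at chr8:35384171-35384218 (+) from codon 61 of 284 for Ppp1r3b, at chr19:36734090-36734137 (−) from codon 84 of 317 for Ppp1r3c, and at chr2:178413935-178413982 (−) from codon 82 of 279 for Ppp1r3d.
Ppp1r3b: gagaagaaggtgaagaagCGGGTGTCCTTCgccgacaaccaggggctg
Ppp1r3c: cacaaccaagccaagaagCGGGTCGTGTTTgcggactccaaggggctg
Ppp1r3d: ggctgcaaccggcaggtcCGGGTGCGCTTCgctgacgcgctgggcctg
Ppp1r3b and Ppp1r3c were identical at 32 of the 48 bases, Ppp1r3b and Ppp1r3d at 28, and Ppp1r3c and Ppp1r3d at 24.

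Ppp1r3b (ENSMUSG00000046794, chr8:35375741-35388124 in GRCm38, + strand) encodes the glycogen-targeting subunit that is best known from liver. With a mean of 27.2 ± 5.77 TPM (SD, n = 30), it stood above 90.8% of the 30298 genes detected. Its levels by group had a lowest, median and highest value of 27.5, 32.6 and 36.8 TPM in CD F, of 19.9, 23.9 and 29.0 TPM in HFD F, and of 19.2, 24.8 and 28.6 TPM in CD M. The corresponding values were 23.1, 25.7 and 37.7 TPM in HFD M and 20.2, 25.2 and 43.5 TPM in HFD+E2 M. CD F was therefore the group with the highest level, while the other 4 groups covered much the same range. By group mean the order was CD F (31.8 ± 3.53 TPM), HFD M (27.9 ± 5.61), HFD+E2 M (27.3 ± 8.67), CD M (24.7 ± 3.85) and HFD F (24.3 ± 3.94), and each group overlapped with its neighbour in that order. The value of 43.5 TPM came from 1 library, HFD+E2 M replicate 1.

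**Figure D1:**
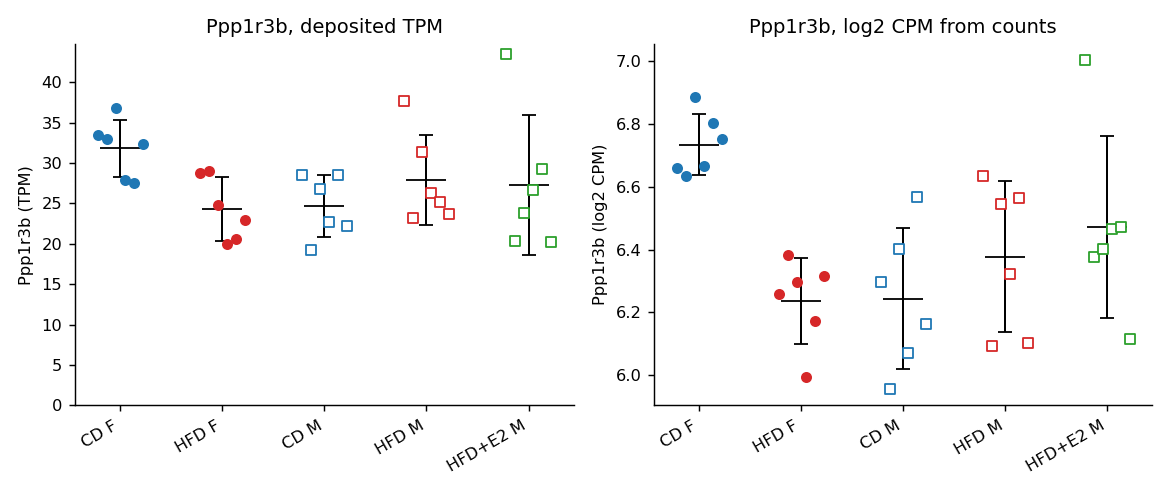
Ppp1r3b in each library by group (filled circles, females; open squares, males), as deposited TPM (left) and as log2 CPM from the counts (right), with horizontal bars for the group mean and error bars of 1 SD (n = 6). On the log2 CPM axis, which does not start at 0, the CD F libraries sit between 6.63 and 6.88, above the HFD F libraries at 5.99 to 6.38.

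The study asked how a high-fat diet changes the colon transcriptome in each sex. In females, Ppp1r3b was lower on HFD than on CD, with a log2 fold change of -0.48 (SE 0.08, n = 6 per group), or 0.719 times the CD level. In log2 CPM (counts scaled to library size by TMM) each HFD F library was below each CD F library, whereas in TPM 4 of the 6 HFD F libraries were below the whole CD F group. In males, the log2 fold change was 0.14 (SE 0.12), in the opposite direction, and the libraries of CD M and HFD M overlapped on both scales. The difference of the diet response between females and males was -0.62 on the log2 scale (SE 0.15, 24 libraries). These values are those that chose the gene and show no more than that choice. Without the libraries with over 200 TPM of squamous epithelium genes, which leaves 2 HFD F and 4 HFD M libraries, they were -0.38 (SE 0.12) in females, 0.21 (SE 0.14) in males and -0.60 (SE 0.19) for the difference. The value in females was then under the study's fold threshold of 0.4.

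In the fit of each comparison, a gene passed the study's threshold with a log2 fold change beyond 0.4, up or down, at an unadjusted p-value under 0.05. Each of the 9 genes passed the filter on low counts in each of the 5 comparisons. Under HFD in females, 3.67% of 15061 genes passed this threshold. Ppp1r3b was among them, and since it was chosen by this comparison nothing is read from that, while 0 of the other 8 passed by edgeR and by DESeq2. In males 0 of 9 did, by edgeR and by DESeq2, where 2.90% of 14991 genes did. The log2 fold changes of the other 8 genes ran from -0.02 (Pygl) to 0.32 (Ppp1r3d, SE 0.21) in females and from -0.29 (Pygl, SE 0.19) to 0.25 (Ppp1r3d, SE 0.19) in males, where Pygl was at 0.02 on log2(TPM + 0.1) in limma. The median of the 9 was 0.05 in females and 0.13 in males, against 0.00 and -0.01 over all genes.

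**Figure D2:**
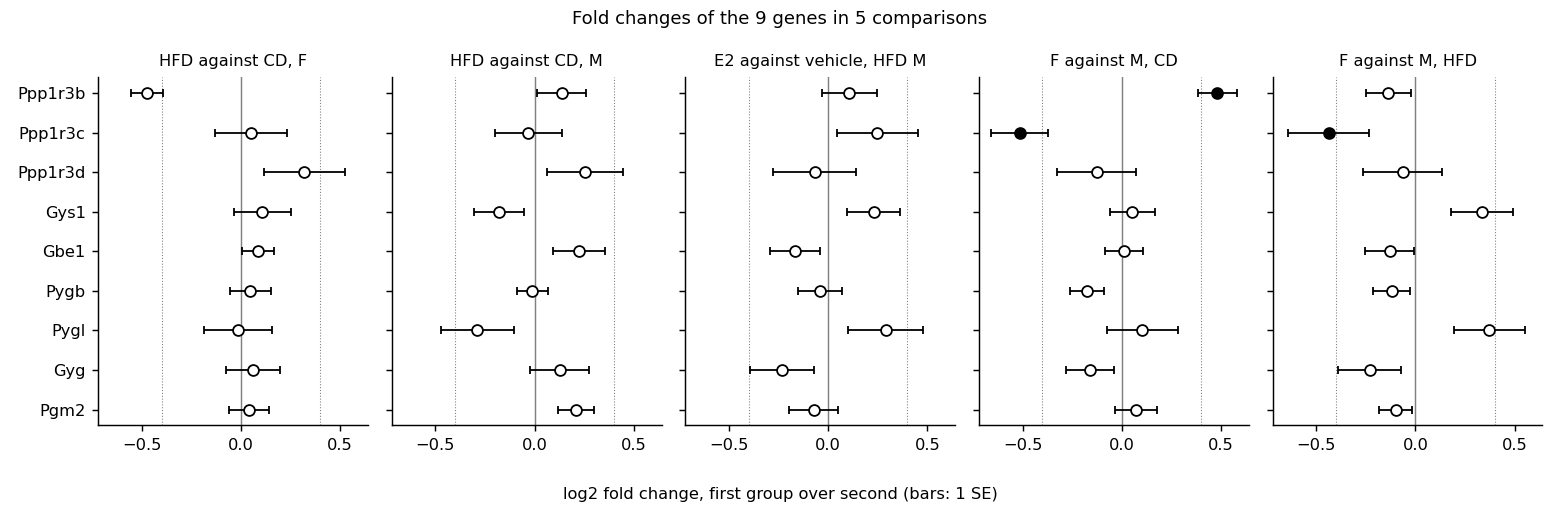
Log2 fold changes of the 9 genes (rows) in the 5 comparisons (panels), with bars of 1 SE and dotted lines at the fold threshold of 0.4 in either direction; filled points passed the study's threshold (p under 0.05 and that fold), which is not marked in the diet comparisons (HFD against CD). The filled points are Ppp1r3b in F against M, CD (0.48), and Ppp1r3c in both comparisons of F against M (-0.51 and -0.44).

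The sexes were compared on each diet. On CD, Ppp1r3b was 1.40 times as high in females as in males (log2 fold change 0.48, SE 0.10, adjusted p = 0.0130 by edgeR's quasi-likelihood test with Benjamini-Hochberg adjustment). In log2 CPM each of the 6 CD F libraries was above each of the 6 CD M libraries, and the exact two-sided permutation test gave p = 0.00216, the smallest it can give for 6 against 6. The TPM values overlapped, with 4 of the 6 CD F libraries above the whole CD M group. This test is not independent of the choice of the gene, because the CD F and CD M libraries also enter the diet comparisons in females and males. On HFD the difference was not past the threshold (log2 fold change -0.14, SE 0.11, adjusted p = 0.878, exact permutation p = 0.238, n = 6 per group). The HFD F and HFD M libraries enter those diet comparisons too, so this test is not independent of the choice either.

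The female to male difference of Ppp1r3b on CD was given by fits that carried marker scores as well. The 11 smooth muscle genes, each over 1 TPM on average in both groups, summed to 2683 to 4160 TPM in CD F and to 4234 to 6979 TPM in CD M, without overlap. When their score was added to the model, Ppp1r3b had a value of 0.55 (adjusted p = 0.0491). The 9 B cell genes summed to 14.0 to 66.5 TPM in CD F and 0.887 to 51.3 TPM in CD M, and with their score the value was 0.54 but its adjusted p of 0.0982 missed the threshold. On log2(TPM + 0.1) in limma it was 0.37 with an adjusted p of 0.144, beside a median of -0.11 over all genes on that scale.

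Ppp1r3c (ENSMUSG00000067279, chr19:36731737-36736653, − strand), known as protein targeting to glycogen, was lower in females than in males, the opposite direction to Ppp1r3b on CD. Its lowest, median and highest levels were 2.60, 3.51 and 5.23 TPM in CD F and 4.78, 5.83 and 6.75 TPM in CD M. Thus 5 of the 6 CD F libraries lay below the whole CD M group on this scale. The log2 fold change was -0.51 (SE 0.14), which passed the study's threshold (unadjusted edgeR p = 0.0023) but not after adjustment (adjusted p = 0.0629), and the exact permutation test gave p = 0.00649. DESeq2 gave an adjusted p of 0.0217 for the same counts. With the smooth muscle score in the fit, the value was -0.38 and its unadjusted p of 0.085 missed the threshold.

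On HFD, Ppp1r3c had a lowest, median and highest level of 2.89, 4.19 and 5.79 TPM in females and 3.47, 5.96 and 8.39 TPM in males, so the groups overlapped. The log2 fold change was -0.44 (SE 0.20, unadjusted edgeR p = 0.0478, adjusted p = 0.872), and the exact permutation test gave p = 0.0823. This call rested on few libraries. It was lost without any 1 of HFD F replicates 2, 4 and 6 and HFD M replicates 1, 2, 3 and 4, where the log2 fold change was between -0.43 and -0.29, with the value nearest 0 reached without HFD M replicate 2. Without the libraries with over 200 TPM of squamous epithelium genes it was -0.54 (SE 0.29), also not past the threshold.

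Of the 9 genes, 2 (Ppp1r3b higher and Ppp1r3c lower in females) passed the study's threshold on CD, where 9.15% of 14922 genes did, and 1 (Ppp1r3b) passed after adjustment, where 2.92% did. The CD F and CD M libraries also enter the diet comparisons that chose Ppp1r3b, so nothing is read from its part in these counts. Ppp1r3c, which was not chosen in that way, passed in edgeR before but not after adjustment. In DESeq2 2 of the 9 passed before adjustment and 2 after it, Ppp1r3c among them both times. Over all genes, 1745 of 27698 passed in DESeq2 before adjustment and 774 after it. On HFD 1 of 9 (Ppp1r3c) passed in edgeR, where 3.09% of 15179 genes did. After adjustment 0 of 9 did in edgeR and in DESeq2, where 0.0988% of genes did in edgeR. At an unadjusted p under 0.05 there were 2 of the 9 in edgeR, Ppp1r3c and Gys1. The share of all genes at this p alone was not counted, so nothing is read from it.

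The ratio of Ppp1r3b to Ppp1r3c TPM describes the balance of these 2 subunits within a library. It had a lowest, median and highest value of 7.03, 8.96 and 11.0 in CD F and of 3.35, 4.29 and 5.69 in CD M, without overlap. In HFD F the values were 4.39, 5.95 and 7.94, in HFD M 2.76, 5.40 and 7.24, and in HFD+E2 M 3.55, 4.39 and 6.01. The 4 groups other than CD F thus overlapped with each other. CD F overlapped with HFD F and HFD M as well, but not with CD M or HFD+E2 M. Ppp1r3b made up from 77.1% to 79.9% of the summed TPM of Ppp1r3a to Ppp1r3g in CD F and from 63.9% to 72.3% in CD M, and 71.6% ± 5.29 over all libraries (SD, n = 30). Ppp1r3c made up 13.5% ± 3.65. These ratios were formed from genes chosen with their values known and were not tested.

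**Figure D3:**
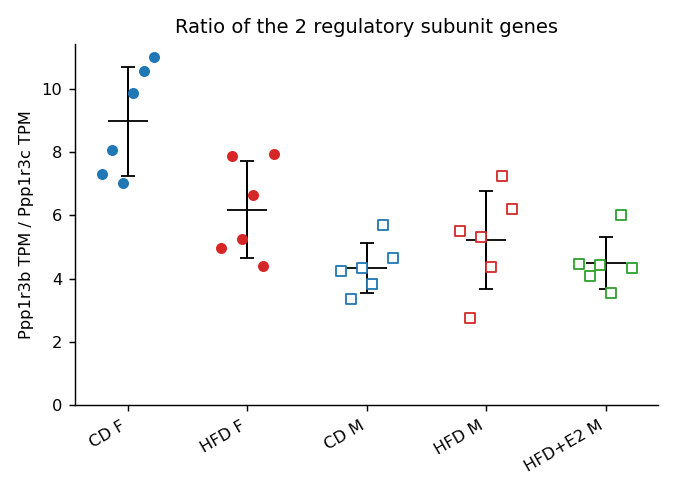
Ratio of Ppp1r3b TPM to Ppp1r3c TPM in each library (points) by group, with the group mean and 1 SD (n = 6). The CD F libraries lie between 7.03 and 11.0 and the CD M libraries between 3.35 and 5.69, with HFD F between 4.39 and 7.94.

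HFD males given E2 were compared with those given vehicle, to ask whether estradiol changes the obese male colon. Ppp1r3b had a log2 fold change of 0.11 (SE 0.14, adjusted p = 0.774 by edgeR, exact permutation p = 0.578, n = 6 per group), and its value was -0.01 without HFD+E2 M replicate 1 and -0.06 on log2(TPM + 0.1) in limma, where the median of all genes was -0.16. No member passed the study's threshold (0 of 9 in edgeR and in DESeq2, with 0 at an unadjusted p under 0.05 in either), where 5.87% of 15010 genes did, and 0.00666% (1 gene) after adjustment. The largest values were 0.29 for Pygl (SE 0.19), 0.25 for Ppp1r3c (SE 0.20), -0.23 for Gyg (SE 0.16) and 0.23 for Gys1 (SE 0.13), each with an adjusted p over 0.5. The HFD M libraries also enter the diet comparison in males and the sex comparison on HFD, and so these values are not independent of each other.

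Ppp1r3d (ENSMUSG00000049999, chr2:178411206-178414472, − strand), a subunit found in many tissues, was the lowest of the 9 genes, at 1.30 ± 0.364 TPM (SD, n = 30) and 19 to 63 counts per library. Its group medians were 1.15 TPM in CD F, 1.20 in CD M, 1.35 in HFD F, 1.40 in HFD M and 1.30 in HFD+E2 M. Each pair of compared groups overlapped, and no tested difference passed the threshold.

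Gys1 (ENSMUSG00000003865, chr7:45434844-45456619, + strand) encodes the glycogen synthase of muscle and most other tissues, and Gys2, the liver synthase, was listed at 0 TPM in each library. The lowest, median and highest levels of Gys1 were 7.08, 7.62 and 9.75 TPM in CD F and 6.67, 7.85 and 8.40 TPM in CD M. On HFD the range was wider in females, at 4.21, 8.06 and 10.5 TPM, than in males, at 5.18, 7.18 and 8.65 TPM, and in HFD+E2 M it was 5.99, 7.99 and 10.4 TPM. The groups overlapped. Females on HFD had a log2 fold change of 0.34 over males (SE 0.15, adjusted p = 0.872 by edgeR, exact permutation p = 0.0952), below the fold threshold although its unadjusted p was under 0.05. Without HFD F replicate 2, the library with the lowest TPM value, it was 0.42, past the threshold of the study. With the smooth muscle score in the fit it was past it as well (0.43). In the other 11 fits with 1 library left out it was not past the threshold. Nor was it in 11 of 12 other alternative fits, where the value was as low as 0.11.

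Gyg (ENSMUSG00000019528, chr3:20122084-20155317, − strand) encodes glycogenin, the protein on which each glycogen particle starts. It was at 13.9 ± 4.01 TPM over all libraries, with group medians from 11.0 TPM in HFD+E2 M to 15.9 TPM in HFD M. Gbe1 (ENSMUSG00000022707, chr16:70313949-70569716, + strand), the branching enzyme, was at 18.3 ± 3.29 TPM, with group medians from 16.7 TPM in HFD+E2 M to 20.9 TPM in HFD M. Pgm2 (ENSMUSG00000025791, chr4:99929414-99987294, + strand) is a phosphoglucomutase that interconverts the glucose phosphates on the way into and out of glycogen. Its identifier is that of the gene which newer annotation calls Pgm1, and the deposited tables give the name Pgm1 to another gene. Pgm2 had 21.8 ± 3.75 TPM and varied least in CD M, between 19.9 and 21.8 TPM. In HFD M it was between 21.4 and 28.3 TPM, with 5 of the 6 libraries above the whole CD M group. The 3 genes did not pass the threshold in any of the 5 comparisons. Their log2 fold changes lay between -0.23 (Gyg, E2 against vehicle) and 0.23 (Gbe1, HFD against CD in males).

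Glycogen phosphorylase was mostly the brain form, Pygb (ENSMUSG00000033059, chr2:150786735-150831758, + strand), which had the highest level of the 9 genes, at 60.7 ± 11.0 TPM. It made up 85.3% ± 5.33 of the summed TPM of Pygb, Pygl and the muscle form Pygm (SD, n = 30). Its lowest, median and highest levels were 37.8, 53.7 and 66.8 TPM in CD F, 58.5, 64.2 and 77.6 TPM in CD M, 42.9, 57.1 and 72.8 TPM in HFD F, and 58.4, 66.8 and 70.9 TPM in HFD M. The medians were lower in females on both diets, but the groups overlapped, and the log2 fold changes of F against M were -0.18 on CD (SE 0.09, adjusted p = 0.358) and -0.12 on HFD (SE 0.09, adjusted p = 0.878). Pygl (ENSMUSG00000021069, chr12:70190811-70231488, − strand), the liver form, was at 2.81 ± 0.975 TPM and 33 to 107 counts. Its largest tested value was 0.37 in F against M on HFD (SE 0.18, adjusted p = 0.872 by edgeR, exact permutation p = 0.0584). It passed the study's threshold without HFD F replicate 2 (0.44), without HFD F replicate 4 (0.44) and without HFD M replicate 3 (0.47). In the other 9 fits with 1 library left out it did not pass. Nor did it in 11 of 12 other alternative fits, where the value was as low as 0.074.

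**Figure D4:**
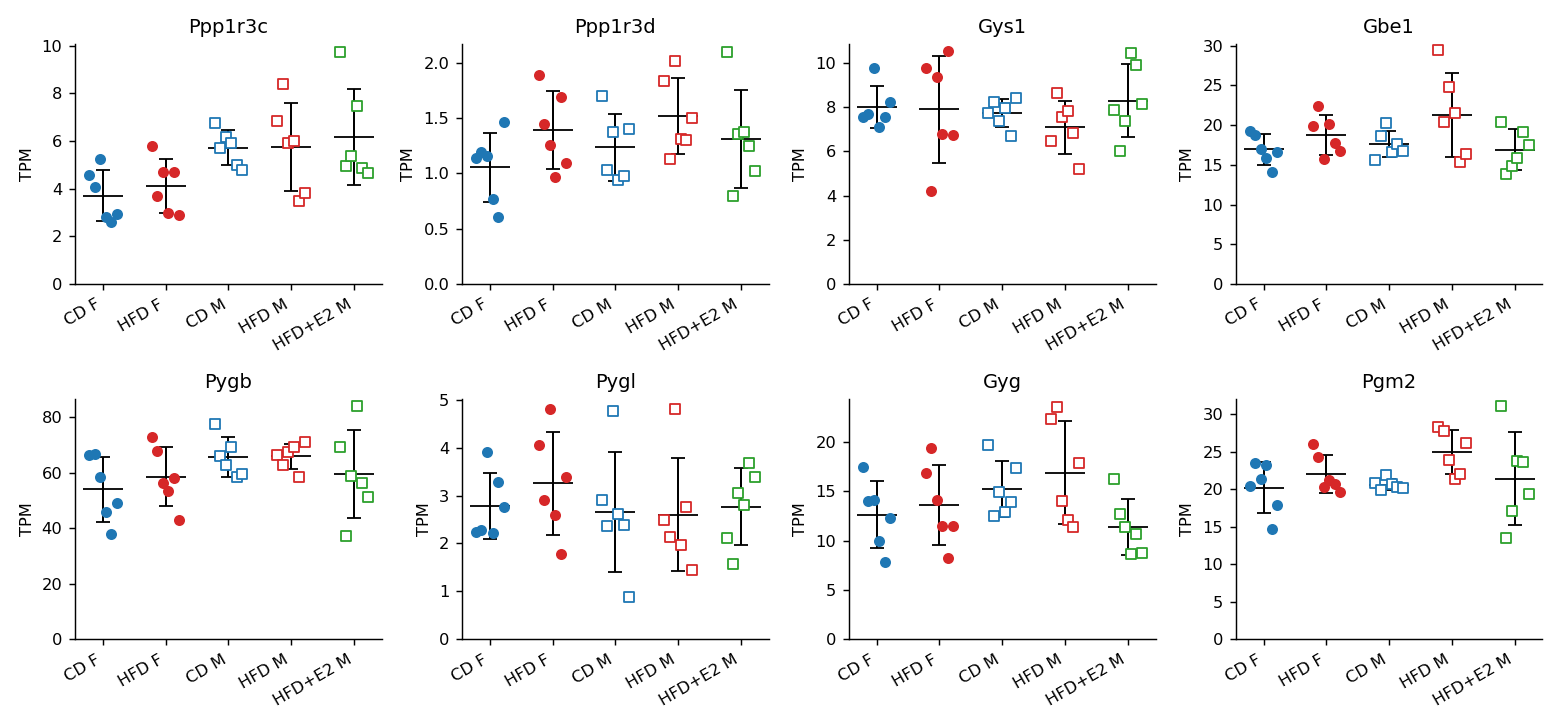
TPM of the other 8 genes in each library (points; filled circles, females; open squares, males) by group, with the group mean and 1 SD (n = 6), on axes that start at 0. For Ppp1r3c, most CD F libraries (2.60 to 5.23 TPM) are below the CD M libraries (4.78 to 6.75 TPM). For Pgm2, most HFD M libraries (21.4 to 28.3 TPM) are above the CD M libraries (19.9 to 21.8 TPM). The compared groups overlap for each of the 8 genes, to differing degrees.

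The wider pathway was followed in 33 other glycogen genes, of which 24 or 25 were tested in each comparison. In females 2 of 24 passed the study's threshold under HFD (3.67% of all genes did): Pygm, the muscle phosphorylase, with a log2 fold change of 0.99 (SE 0.35, adjusted p = 0.622), and Hk2, a hexokinase, with -0.42 (SE 0.12, adjusted p = 0.496). In males 1 of 24 did (2.90% of all genes), Epm2a, the glycogen phosphatase laforin, with 0.54 (SE 0.19, adjusted p = 0.731). With E2 2 of 24 passed (5.87% of all genes), Stbd1, a glycogen-binding protein, with -0.46 (SE 0.21) and Hk1, another hexokinase, with 0.43 (SE 0.16), at adjusted p-values of 0.478 and 0.460 by edgeR. Between the sexes on CD 2 of 25 passed (9.15% of all genes), Pygm with -0.68 in females (SE 0.16, adjusted p = 0.0302) and Slc2a4, the insulin-responsive glucose transporter, with -0.57 (SE 0.16, adjusted p = 0.0604). On HFD 1 of 24 did (3.09% of all genes), Epm2a with -0.50 (SE 0.23, adjusted p = 0.872). The median of the tested genes was between -0.04 and 0.02 in the 5 comparisons, beside -0.01 to 0.01 over all genes. In the fit for the difference of the diet response between the sexes, 0 of 26 passed an unadjusted p under 0.05 in edgeR. Over all genes, 818 of 15800 passed that p together with the fold threshold, and nothing is read from the 0.

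Several of these calls moved with other tissues in the libraries or with single libraries. Pygm followed the 12 skeletal muscle genes, with r = 0.87 over 30 libraries after the group means were taken out (Spearman's rho 0.76, and r = 0.81 without the 2 farthest libraries). Its diet value in females was -0.01 with the skeletal muscle score in the fit, -0.17 with the squamous epithelium score and -0.17 without the libraries with over 200 TPM of squamous epithelium genes. Its sex value on CD was -0.33 on log2(TPM + 0.1) in limma (adjusted p = 0.475), -0.40 with the smooth muscle score (adjusted p = 0.347) and -0.67 with an adjusted p of 0.531 when all 30 libraries were fitted together, past the threshold in none of these 3 fits. The value of Epm2a in males was 0.22 without the libraries high in squamous epithelium genes, not past the threshold. Hk2 was at -0.36 with the skeletal muscle score and at -0.39 to -0.36 without any 1 of CD F replicates 5 and 6 and HFD F replicates 1, 2 and 3, under the fold threshold. The call of Slc2a4 at the unadjusted threshold held in each alternative fit that was made. Its adjusted p ran from 0.0301 to 0.137 by edgeR with 1 library left out. In the other fits (edgeR, DESeq2 and limma) it ran from 0.00888 to 0.537. The call of Hk1 was lost without any 1 of HFD M replicates 1 and 2 and HFD+E2 M replicates 3 and 4 (0.36 to 0.39). That of Stbd1 was lost in 8 of 12 fits that left out 1 library (HFD M replicates 1, 2, 3 and 6 and HFD+E2 M replicates 2, 3, 4 and 6), where it was between -0.47 and -0.39. That of Epm2a on HFD was lost in 7 of 12 (HFD F replicates 3, 4, 5 and 6 and HFD M replicates 2, 3 and 4), where it was between -0.52 and -0.37.

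Across the 30 libraries, with the differences between groups left in, the correlations of the other 8 genes with Ppp1r3b in log2 CPM ranged from -0.09 (Pygb) to 0.20 (Pgm2), among 14715 genes compared. The most similar genes were Vps13d, a lipid transfer protein (r = 0.69), Fbxo18, an F-box DNA helicase (0.69), Paxbp1 (0.68), Mtx3, of the mitochondrial outer membrane (0.67), and Manba, lysosomal beta-mannosidase (0.66). Adamts2, a procollagen protease (r = -0.69), and Podn, a matrix proteoglycan (-0.66), were among the most opposite. For Adamts2, Spearman's rho was -0.72, r was -0.63 after the group means were taken out and -0.62 without CD F replicate 3 and HFD+E2 M replicate 1. Its lowest, median and highest levels were 1.38, 1.83 and 2.02 TPM in CD F and 2.21, 2.91 and 3.57 TPM in CD M. These genes were picked as the extremes among all genes, and libraries share groups, depth and tissue makeup, so the correlations are a description.

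Within groups, Gys1 and Gyg moved in opposite directions with the smooth muscle score, the mean log2 CPM of the smooth muscle genes. After the group means were taken out, r over 30 libraries was 0.77 for Gys1 (rho 0.78, and 0.76 without the 2 farthest libraries) and -0.68 for Gyg (rho -0.69, and -0.63). For Ppp1r3b r was -0.06, but the groups differed. It was 0.74 in CD F, 0.21 in HFD M, -0.14 in CD M, -0.30 in HFD F and -0.42 in HFD+E2 M, each on 6 libraries. Gys1 and Gyg were themselves related at r = -0.56 (rho -0.56). Pygb and Ppp1r3d had r = 0.52 (rho 0.54), and Ppp1r3b and Ppp1r3d 0.49 (rho 0.44, and r = 0.41 without the 2 farthest libraries), beside 0.15 with the group means left in.

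**Figure D5:**
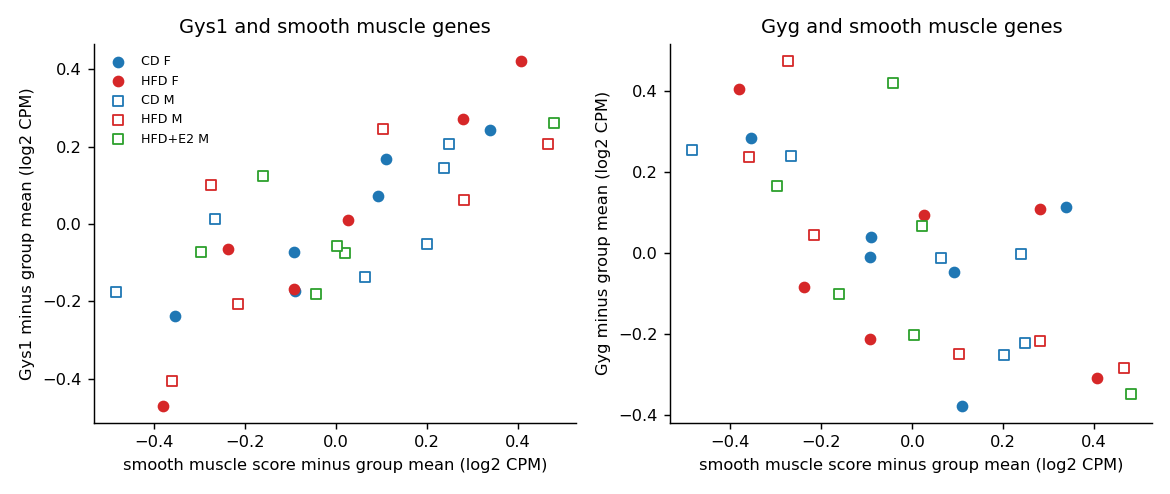
Relations across the 30 libraries, coloured by group (filled circles, females; open squares, males): Gys1 (left) and Gyg (right) against the smooth muscle score, each as log2 CPM minus its group mean. Gys1 rises with the score (r = 0.77) and Gyg falls (r = -0.68).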

How the data were processed

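Colon RNA of 30 mice was sequenced in 5 groups of 6, as labelled. The authors trimmed the reads with Trim Galore, mapped them with STAR to GRCm38, and deposited raw read counts per gene from featureCounts, without normalization. The authors also deposited TPM values per gene from StringTie, which were used as they stand. The kit keeps strand, but whether the counting used it is not given in the sources used here, so reads of Ppp1r3b, Gys1 and Pygl cannot be told apart from those of the genes that GENCODE vM21 places opposite them (Gm45469, Ruvbl2 and F730035M05Rik).

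The 9 genes, the list of 33 other glycogen genes and the marker lists were chosen with earlier results of these data known. The genes named are the 9, those of the 33 past the study's threshold in any comparison, and the 5 autosomal genes most and 3 least correlated with Ppp1r3b in log2 CPM (prior count 2), among genes with a mean of at least 1 TPM. Some results that this rule or these lists cover are not reported here. For each comparison, edgeR 4.0.16 (R 4.3.3) was run on the 12 libraries concerned (filterByExpr, TMM, robust quasi-likelihood F-test), and the standard error was taken from the F statistic. The difference of the diet response was fitted to the 24 vehicle libraries. The study does not state whether its p-value threshold of 0.05 was adjusted, so both readings are given. P-values of the diet comparisons are not given for the 9 genes. Exact two-sided permutation tests used log2 CPM. A marker score is the mean log2 CPM of the genes of a list with a mean over 0.1 CPM. The fits were tested on counts simulated from CD F and CD M, with changes larger than those of Ppp1r3b. This does not show how well changes of that size are found. Alternatives were DESeq2 1.42.0, its size factors in edgeR, no filter, a minimum of 10 counts in each library, a joint fit of all 30 libraries, a block for the replicate number, marker scores as covariates, log2(TPM + 0.1) in limma 3.58.1 and each library left out in turn. The comparisons share libraries and are not independent. Of 45 sets of values (9 genes in 5 groups), 0 held a library far from the other 5 by Dixon's test.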

Additional observations from a re-analysis of the deposited data

How the results depend on the processing

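Depth limits Ppp1r3d, Pygl and Ppp1r3c most, whose counts were lowest. Ppp1r3b kept its direction in the diet comparisons and their difference, and in F against M, under each alternative run, with 0.37 to 0.56 in F against M on CD, where 2 fits missed the adjusted threshold (0.54 with the B cell score and 0.37 on log2(TPM + 0.1) in limma). Its E2 value was -0.061 on that TPM scale and -0.0081 to 0.17 with 1 library left out. The cause was not tested for any of the changes given here, and the skeletal muscle score and the exclusion of libraries high in squamous epithelium genes were chosen after seeing the data.

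The count of the 9 genes past the study's threshold fell from 1 (Ppp1r3b, chosen by that comparison) to 0 under HFD in females in the TPM fit and without the libraries over 200 TPM of squamous epithelium genes. With E2 it was 1 in place of 0 with the squamous epithelium score (Ppp1r3c, 0.45) and in the TPM fit (Gyg, -0.54). In F against M on CD it was 1 in place of 2 in the TPM fit. In F against M on HFD it was 0 in place of 1 with at least 10 counts in every library, with the B cell score, in the TPM fit and without the squamous-rich libraries, 2 with the smooth muscle score (Gys1 and Pygl), and 0 to 2 with 1 library left out. Counts over all genes changed between fits as well, as given in the next paragraph, and nothing is read from these shifts.

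Of the other glycogen genes, the count under HFD in females was 0 in place of 2 with the squamous epithelium, B cell and skeletal muscle scores and in the TPM fit, 1 with the smooth muscle score, and 1 to 3 with 1 library left out. In males it was 2 in place of 1 when all 30 libraries were fitted together and 0 with the squamous epithelium score. With E2 it was 0 in place of 2 with the squamous epithelium score and without the squamous-rich libraries, 1 with the smooth muscle, B cell and skeletal muscle scores, 4 in the TPM fit, and 0 to 4 with 1 library left out. In F against M on CD it was 4 in place of 2 without a filter and with the smooth muscle score, 1 with all 30 libraries, and 2 to 4 with 1 library left out. On HFD it was 3 in place of 1 with the squamous epithelium score, 0 with the smooth muscle and B cell scores and in the TPM fit, and 0 to 1 with 1 library left out. The number of all genes past the threshold changed too. Under HFD in females it was 347 of 15061 with the squamous epithelium score and 688 in the TPM fit, in place of 553. With E2 it was 479 of 15010 with the squamous epithelium score, in place of 881. The smooth muscle score gave 2246 of 14922 in F against M on CD, in place of 1366, and 798 of 15179 on HFD, in place of 469. A change of count is therefore not read as a change of these genes.

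Signs turned for Pygm under HFD in females (-0.17 with the squamous epithelium score, -0.012 with the skeletal muscle score, -0.17 without the squamous-rich libraries). In the sex comparisons they turned for Gbe1 in F against M on CD (-0.000802 without a filter, -0.060 in the TPM fit), Pgm2 (-0.047 in the TPM fit) and Ppp1r3d on HFD (0.0082 with the squamous epithelium score). Under HFD in females they turned for Ppp1r3c with each of the 4 scores and without the squamous-rich libraries (-0.25 to -0.084), for Gys1 with 3 scores, in the TPM fit and without those libraries (-0.19 to -0.072), for Pygb with 2 scores and without those libraries (-0.022 to -0.0094) and for Pygl in the TPM fit (0.18). In males they turned in the TPM fit for Pygl (0.020) and Pygb (0.010) and with the smooth muscle score for Gyg (-0.090). With 1 library left out, the ranges that crossed 0 were, in F against M on CD, -0.056 to 0.059 for Gbe1, -0.0020 to 0.10 for Gys1, -0.022 to 0.11 for Pgm2 and -0.0067 to 0.19 for Pygl. They were -0.17 to 0.033 for Ppp1r3d in F against M on HFD, and with E2 -0.18 to 0.030 for Ppp1r3d and -0.13 to 0.013 for Pygb. Under HFD in females they were -0.028 to 0.12 for Gyg, -0.016 to 0.16 for Ppp1r3c, -0.091 to 0.055 for Pygl, -0.0037 to 0.091 for Pygb and -0.0014 to 0.13 for Pgm2, and in males -0.18 to 0.059 for Ppp1r3c and -0.034 to 0.016 for Pygb.

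The replicate numbers are not stated to pair animals. Deviations of same-numbered libraries correlated at over 0.1 in 2 to 5 of 6 pairs in the 5 comparisons, not in every pair of any, so the numbers were not taken to pair the libraries. As a hint from the data, the median r of same-numbered against other pairs was 0.27 against -0.046 in F against M on CD and 0.21 against -0.0051 under HFD in males, each with 5 of 6 pairs over 0.1, and 1 to 6 of 12 libraries correlated best with their own number. Over all genes, the block took the count at an adjusted p under 0.05 (edgeR) from 435 to 941 in F against M on CD. The count went from 3 to 12 under HFD in females, 0 to 2 in males, 1 to 7 with E2 and 15 to 10 in F against M on HFD. With the replicate block, Ppp1r3b was at -0.48 under HFD in females, 0.14 in males, 0.10 with E2, 0.49 in F against M on CD and -0.12 on HFD. The block left 0 of the 9 genes past the threshold in F against M on HFD (Ppp1r3c at -0.42) and changed no other count of the 9 or of the other glycogen genes by over 1.5 times.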

Other observations

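Some levels of the wider pathway belong to no comparison above. The catalytic subunits of protein phosphatase 1, to which the Ppp1r3 proteins bind, were present at 90.4 TPM (Ppp1ca), 73.0 TPM (Ppp1cb) and 42.5 TPM (Ppp1cc) on average over 30 libraries. Ppp1r3e, another member of the family, was at 4.02 TPM, and Ppp1r3a, the muscle member, at 0.19 TPM. Ugp2, which makes the activated glucose used by the synthase, was at 56.0 TPM. G6pc, whose product releases free glucose in liver, was listed at 0 TPM in each library. The ratio of Pygb to Gys1 TPM had group medians from 6.23 in CD F to 8.88 in HFD M.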
